A study of Mus musculus with 6 samples.

Results

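The 10 genes described here encode the nuclear receptors of retinoic acid (Rara, Rarb, Rarg, Rxra, Rxrb, Rxrg), the catabolic enzymes Cyp26a1 and Cyp26b1 and the synthesis enzymes Aldh1a1 and Aldh1a2, among 21436 protein-coding genes whose 5′ end was known. They were chosen by name, and every accessible region from 10 kb upstream of the 5′ end to 10 kb past the 3′ end of each gene was taken, which gave 113 of the 158725 regions of the series. The assay was ATAC-seq, which marks open DNA by the adapters that the transposase Tn5 inserts there, and was run on 6 libraries of 50000 cells each from testes of Pnd 5 mice (postnatal day 5). In 3 libraries the mice were Sirt7-/- (S7KO) and in 3 they were WT, both of the same inbred background, and the contrast asked whether chromatin accessibility depends on SIRT7, a deacetylase that acts on lysine residues of histone H3. The knockout is carried by the whole animal, so the somatic cells left in S7KO samples lacked SIRT7 too. Spermatogonia were enriched by differential plating and not sorted. The paper reports that most cells obtained in this way carried PLZF, a marker of undifferentiated spermatogonia, with flow cytometry shown for WT. In such bulk samples a change in the number of cells of a type and a change of accessibility in each cell cannot be told apart.

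Retinoic acid is made from vitamin A. Retinol dehydrogenases oxidise retinol to retinal, ALDH1A enzymes oxidise retinal to retinoic acid, and CYP26 enzymes of the cytochrome P450 family degrade it. Retinoic acid binds RAR proteins, which pair with RXR proteins on response elements in DNA, commonly direct repeats of a short half-site, and in the testis the signal starts spermatogonial differentiation and the entry into meiosis.

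Between 105754 and 133695 peaks were listed per library, fewest in WT replicate 2, and no read counts or depths were given, so depth is unknown. A peak is described here by its rank, the position in its own list when peaks are ordered by −log10 q, in percent, where a low rank is a strong peak. Values per library follow the order of replicates 1, 2 and 4. Ranks order peaks within a library and are no measure of accessibility between libraries. The promoter of Sirt7 held a peak in all 6 libraries, at ranks from 5.63% to 17.8%, which gave no check of the genotype labels. Promoter peaks in all 6 libraries were found at 9 of 9 germ cell markers, but also at 6 of 7 Sertoli, 5 of 6 Leydig, 6 of 6 peritubular myoid and stromal, 3 of 4 endothelial and 2 of 4 macrophage markers, where Ptprc and Adgre1 had none in any library. Of all protein-coding genes 74% had such a peak, so these counts say little about the cell types present. The median rank of the germ cell markers ran from 16.4% to 22.9% and that of the Sertoli markers from 13.6% to 19.3%, so promoter peaks did not set spermatogonia apart from Sertoli cells. The medians ran from 17.2% to 21.5% for the myoid and stromal markers and from 11.4% to 26.5% for the endothelial markers. The medians of the Leydig markers (24.8% to 33.5%) and of the macrophage markers (25.1% to 46.1%, from 2 genes) were weaker than that of the germ cell markers in every library. Single Leydig markers differed widely. Star (2.03% to 3.71%) and Cyp11a1 (2.77% to 5.27%) were strong, while Insl3, Lhcgr and Cyp17a1 ranked from 24.8% to 61.2%. What part somatic cells had in the results below was not tested.

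The promoter sequences of 3 members are shown because they carry the clearest contrast among the 10 genes. At 2 of them a direct repeat of half-sites lay inside a peak, whereas the promoter of Cyp26b1, the third, held no peak in any library. All are RefSeq sequences of GRCm38.p6, written 5′ to 3′ on the strand of the gene. The Rarb stretch is chr14:16575477-16575726 on the minus strand, the Cyp26a1 stretch is chr19:37697558-37697807 on the plus strand and the Cyp26b1 stretch is chr6:84593909-84594060 on the minus strand. Capitals mark a direct repeat with a spacing of 5 bases in Rarb and Cyp26a1, and the letters TATAAA in Cyp26b1.
Rarb: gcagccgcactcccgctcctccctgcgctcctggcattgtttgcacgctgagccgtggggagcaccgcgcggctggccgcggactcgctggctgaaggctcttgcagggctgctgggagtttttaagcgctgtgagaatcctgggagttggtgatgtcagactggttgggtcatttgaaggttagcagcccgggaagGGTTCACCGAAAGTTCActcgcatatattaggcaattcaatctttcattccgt
Cyp26a1: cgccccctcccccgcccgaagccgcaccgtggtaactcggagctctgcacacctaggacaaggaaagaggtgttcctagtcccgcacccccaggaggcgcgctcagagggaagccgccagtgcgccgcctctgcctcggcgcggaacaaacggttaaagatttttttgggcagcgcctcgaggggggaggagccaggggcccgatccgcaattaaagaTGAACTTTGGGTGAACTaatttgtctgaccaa
Cyp26b1: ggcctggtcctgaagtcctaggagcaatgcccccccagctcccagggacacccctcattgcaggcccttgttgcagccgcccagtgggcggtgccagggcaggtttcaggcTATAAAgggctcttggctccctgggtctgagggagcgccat

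The promoter table held 32851 stretches of 300 bases, from 250 before to 50 after an annotated start, and letters were searched on both strands. Single half-sites were common. AGGTCA was found in 16.3% of stretches, AGTTCA in 14.0% of stretches, GGGTCA in 13.7% of stretches and GGTTCA in 10.4% of stretches. Direct repeats of any pair of these were rare, with 0.222% of stretches holding one of spacing 1, 0.268% one of spacing 2 and 0.0974% one of spacing 5. TATAAA was found in 13.6%, GGGCGG in 35.7% and CCAAT in 37.4% of stretches. All 10 members matched the table, with 18 stretches between them, and 2 of the 18 held a direct repeat, each of spacing 5. Of the 18, 14 were touched by a peak in all 6 libraries and 4 by no peak. Most member stretches with a peak thus held no direct repeat.

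In Rarb the repeat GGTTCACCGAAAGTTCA lay from −53 to −37 of the annotated start, at chr14:16575513-16575529. Each repeat also counts as a match of its single half-sites, which overlap it. In Cyp26a1 the repeat lay on the other strand, where it reads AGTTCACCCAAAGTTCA, from −32 to −16 of the start, at chr19:37697776-37697792. Both repeats, and the whole of both printed stretches, were inside a peak in 6 of 6 libraries. Of the 32 stretches with a repeat of spacing 5 anywhere in the table, 8 (25%) were touched by a peak in all 6 libraries, against 52.7% of all stretches. A match is a description of letters, and binding of a receptor was not measured.

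**Figure D1:**
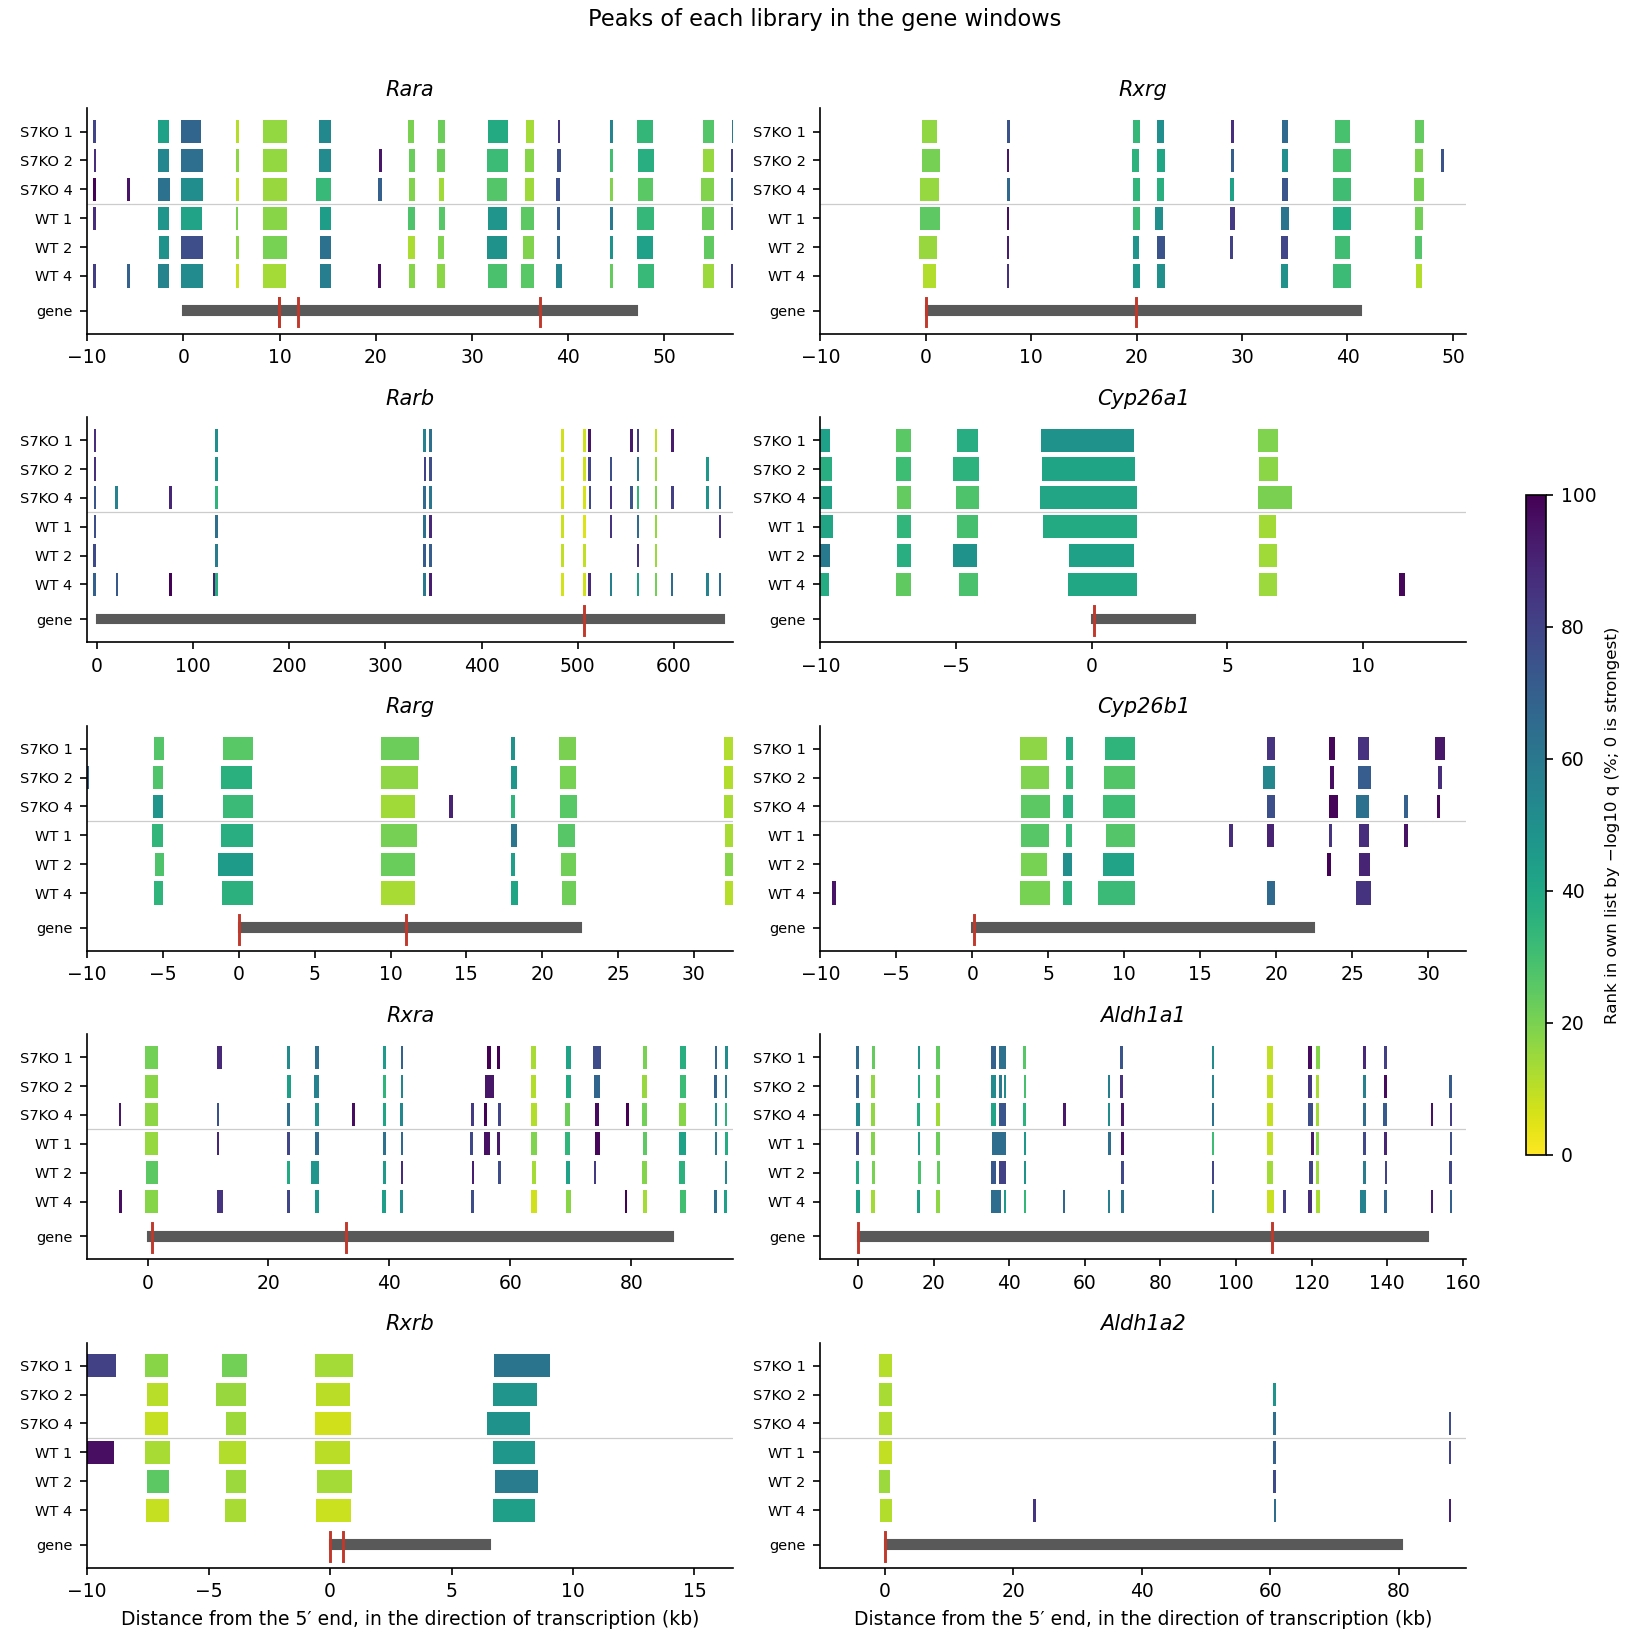
Peaks of each library in the windows of the 10 genes, by distance from the 5′ end in kb in the direction of transcription, with S7KO libraries above the thin line and WT libraries below it. Each block is a peak, widened where it would be too narrow to see, and its colour gives the rank in its own list. Grey bars are gene spans and red ticks are annotated starts. The same blocks recur in all 6 libraries at most positions, the strongest at Rarb lie near 500 kb, and no block covers the 5′ end of Cyp26b1.

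Among the 3 RAR genes, Rara was the most densely accessible. Rara, a receptor with known roles in Sertoli cells and germ cells, lies on the plus strand at chr11:98927800-98974942 (mm10), and a mean of 23.8% of its window was inside peaks, which placed it at percentile 98.5 among all protein-coding genes, whose median was 6.91%. The S7KO libraries had 15319, 16229 and 16773 bp inside peaks, and the WT libraries 15940, 14914 and 16686 bp, so the groups overlapped. The window held 17 regions, 14 of them called in all 6 libraries, and 3 of the 17 lay within 3 kb of the 5′ end of another gene.

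The strongest peak within 3 kb of the Rara 5′ end ranked at 42.8%, 54.1% and 50.9% in S7KO and at 41.8%, 49.1% and 52.1% in WT, in the middle of the lists. A stronger peak lay over a pair of inner starts 9896 and 9918 bp further, inside the region chr11:98936100-98938567. Its rank was 16.4%, 16.2% and 15.6% in S7KO and 17.9%, 20.4% and 13.4% in WT. The inner peak was thus stronger than the one at the 5′ end in 6 of 6 libraries. The start at 11911 bp had no peak within 1 kb in any library, and the start at 37072 bp had one within 1 kb but none over it.

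Rarb, a receptor gene known to be induced by retinoic acid itself, lies on the minus strand at chr14:16430839-17082331, and its window of 671.493 kb was the longest. Only 1.06% of it was inside peaks (percentile 16.8). The covered length was 6961, 7379 and 8546 bp in S7KO and 6416, 4931 and 8294 bp in WT, lowest in WT replicate 2, and the groups overlapped. Of its 17 regions, 8 were called in all 6 libraries, and 16 of the 17 were in the gene body.

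The peak at the inner Rarb start, 506855 bp from the 5′ end of the gene span, was the strongest annotated start among the members. It ranked at 7.66%, 7.56% and 6.31% in S7KO and at 5.45%, 9.47% and 7.39% in WT, with a fold enrichment of 6.08 to 6.75. Near the 5′ end of the span, by contrast, there was no peak within 1 kb, and the peak between −2341 and −1679 bp was weak, at 86.5%, 86.3% and 74.0% in S7KO and 76.6%, 77.9% and 69.8% in WT. The inner peak outranked it in 6 of 6 libraries. A pair of further strong regions flanked the inner start, chr14:16597746-16598792 at ranks from 6.69% to 9.44% and chr14:16500394-16501243 at ranks from 9.56% to 21.4%. Neither holds an annotated start.

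Rarg, the receptor needed by spermatogonia for differentiation, lies on the minus strand at chr15:102234938-102257522, with 16.6% of its window in peaks (percentile 90.9). It was covered over 7025, 7278 and 7149 bp in S7KO and 7292, 6810 and 6875 bp in WT, with overlapping groups. The peak at its 5′ end ranked at 25.9%, 36.5% and 32.2% in S7KO and at 37.2%, 45.2% and 36.1% in WT. S7KO replicate 2 fell among the WT values, so the ranks overlapped. The start 11022 bp further was stronger in every library, at 22.6%, 17% and 14.4% in S7KO and 20.9%, 22.8% and 12.9% in WT. Of 8 regions, 6 were called in all 6 libraries, and Itgb7 shares the window.

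The 3 RXR genes, which encode the common partners of RAR and other nuclear receptors, all had a peak at the 5′ end in all 6 libraries. Rxrb, on the plus strand at chr17:34031812-34038403, had the strongest, at 13.6%, 10.4% and 7.17% in S7KO and 10.3%, 13.4% and 8.18% in WT. Its window was dense, with 21.1% in peaks (percentile 97.0), and crowded, since all 5 of its regions lay within 3 kb of the 5′ end of another gene, among them Ring1, H2-Ke6, Slc39a7 and Col11a2. The covered length was 7007, 5301 and 5013 bp in S7KO and 6406, 4899 and 5003 bp in WT. Replicate 1 was highest in both genotypes, and the groups overlapped.

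Rxra, on the plus strand at chr2:27676445-27763319, had 19 regions, the most of any member, 10 of them called in all 6 libraries. Its promoter peak ranked at 21.5%, 17.7% and 17.1% in S7KO and at 15.7%, 25.3% and 18.2% in WT. A region without an annotated start in the gene body, chr2:27739846-27740840, had ranks from 7.20% to 19.5% and outranked the promoter peak in 5 of 6 libraries, all but WT replicate 1. An inner start 32847 bp from the 5′ end had no peak within 1 kb in any library. Rxra was covered over 11822, 10884 and 11238 bp in S7KO and 11231, 8984 and 10521 bp in WT, which overlapped.

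Rxrg, on the plus strand at chr1:167598362-167639623, had 7 of its 9 regions in all 6 libraries. The 5′ end ranked at 16.7%, 21.0% and 15.9% in S7KO and at 24.6%, 15.3% and 11.5% in WT, with S7KO inside the WT range. A weaker peak at the start 19903 bp further ranked at 33.5%, 35.8% and 34.6% in S7KO and at 31.9%, 48.3% and 46.9% in WT. The covered length was 6076, 6958 and 6836 bp in S7KO and 7159, 6192 and 5871 bp in WT, and the groups overlapped.

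The 2 catabolic enzymes differed at their promoters. Cyp26a1, which degrades retinoic acid and is induced by it, lies on the plus strand at chr19:37697738-37701536, next to Cyp26c1, and 24.0% of its window was in peaks (percentile 98.6). Its promoter peak was broad, 3432, 3439 and 3542 bp wide in S7KO and 3466, 2386 and 2536 bp in WT, and ranked at 49.2%, 41.8% and 41.0% in S7KO and at 39.2%, 42.6% and 40.6% in WT. The covered length was 5866, 6069 and 6604 bp in S7KO and 5878, 4814 and 5007 bp in WT. WT replicate 1 lay just above the lowest S7KO library, so the groups overlapped by that library alone. Of 6 regions, 5 were called in all 6 libraries.

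Cyp26b1, whose product keeps retinoic acid away from germ cells in the fetal testis, lies on the minus strand at chr6:84571414-84593908. No library had a peak within 3 kb of its 5′ end, as was the case for 21.8% of protein-coding genes, whereas 74% of genes had a promoter peak in all 6 libraries. The nearest peak downstream began 3171, 3178 and 3180 bp from the 5′ end in S7KO and 3190, 3210 and 3169 bp in WT, just past the limit of 3 kb. Upstream the nearest peak was 31584, 31663 and 31663 bp away in S7KO and 46560, 31723 and 8977 bp in WT. The printed stretch, with TATAAA and the GC box GGGCGG, was touched by no peak. Cyp26a1 also held both, past its printed bases, inside a peak in 6 of 6 libraries. Over the promoter table, 26.6% of stretches with TATAAA and 88.9% of those with GGGCGG were touched by a peak in all 6 libraries. For all stretches the share was 52.7%.

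The downstream region at chr6:84588767-84590739 was strong in all libraries, at ranks of 17.1%, 19.2% and 25% in S7KO and 26.3%, 20.6% and 20.4% in WT. In all, the gene was covered over 6420, 6462 and 7120 bp in S7KO and 5969, 5279 and 6624 bp in WT, with overlapping groups. Its percentile among all genes was 86.7, above that of Rarb, Rxra, Rxrg and both synthesis enzymes, although its promoter held no peak. Its window of 42.495 kb was shorter than theirs (61.262 kb to 671.493 kb), and the effect of window length on the percentile was not tested.

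Aldh1a1, a synthesis enzyme known from Sertoli cells, lies on the plus strand at chr19:20492583-20643463. Its promoter peak was weak and variable, at 65.1%, 70.6% and 53.3% in S7KO and 78.5%, 39.1% and 43.3% in WT. The peak at the start 109385 bp further was strong, at 9.42%, 9.20% and 8.81% in S7KO and 9.59%, 13.8% and 8.53% in WT. As at Rara, Rarb and Rarg, the inner start outranked the 5′ end in 6 of 6 libraries. The covered length was 12793, 13594 and 14547 bp in S7KO and 12992, 11870 and 15830 bp in WT, and 13 of its 18 regions were called in all 6 libraries.

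Aldh1a2, the synthesis enzyme of later germ cells, lies on the plus strand at chr9:71215789-71296243 and was the reverse. Its 5′ end had one of the strongest promoter peaks among the members, at 11.3%, 13.1% and 11.8% in S7KO and 9.23%, 14.9% and 11.4% in WT, but little else in its window was open. It was covered over 1920, 2331 and 2697 bp in S7KO and 2634, 1908 and 2828 bp in WT, 2.38% of the window (percentile 22.1). The promoter region was the only one of its 4 regions called in all 6 libraries.

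**Figure D2:**
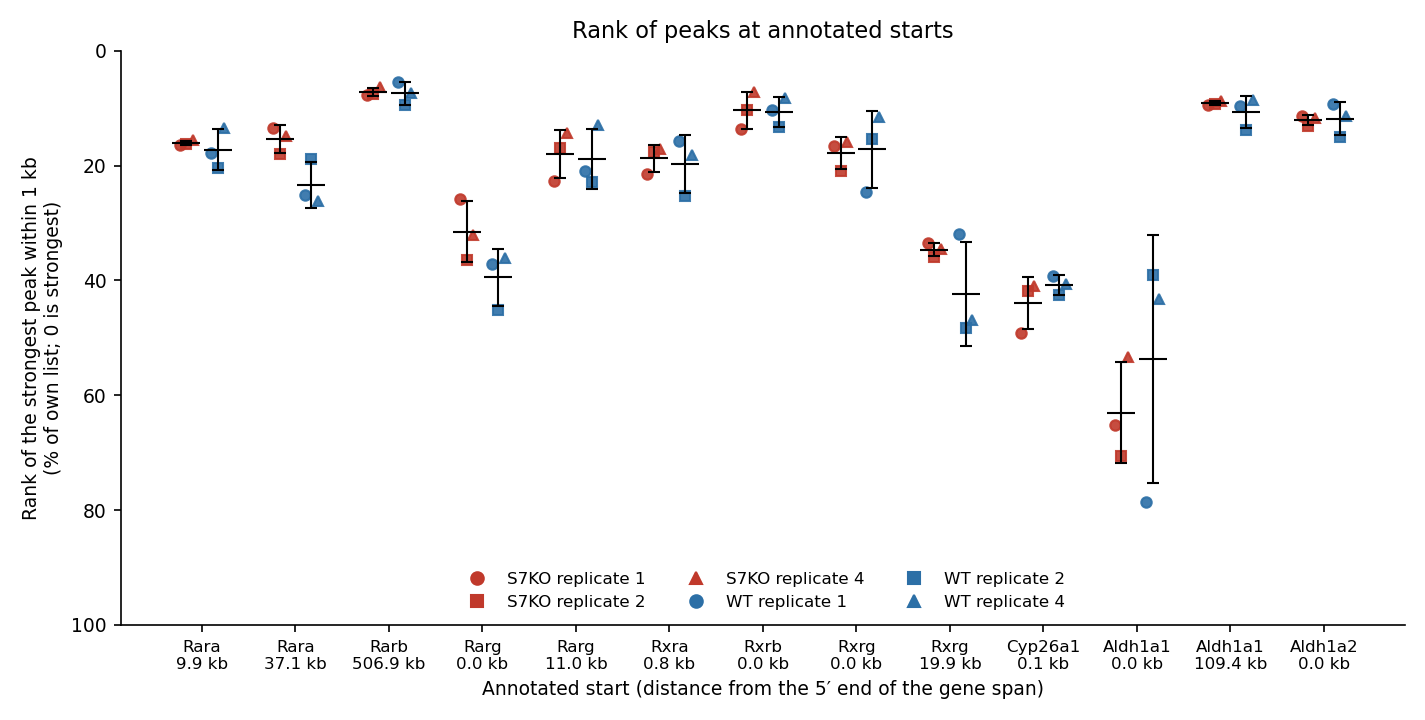
Rank in its own list of the strongest peak within 1 kb of each annotated start, in percent on a reversed axis so that strong peaks are at the top, for each start of a member that had one. Points are libraries, and bars are the mean and SD of 3 libraries. Starts that share a peak are drawn once. The inner start of Rarb sits between 5.45% and 9.47%, and the 5′ end of Aldh1a1 spreads from 39.1% to 78.5%.

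By their promoter ranks Rxrb (7.17% to 13.6%), Aldh1a2 (9.23% to 14.9%), Rxrg (11.5% to 24.6%) and Rxra (15.7% to 25.3%) stood at the strong end, and each of these ranges overlapped the next. Rarg (25.9% to 45.2%), Cyp26a1 (39.2% to 49.2%) and Rara (41.8% to 54.1%) overlapped in turn at weaker ranks. Aldh1a1 (39.1% to 78.5%) overlapped these 3 as well as Rarb (69.8% to 86.5%), which was the weakest in all but WT replicate 1. Over all 15863 genes with a promoter peak in all 6 libraries the median rank was between 7.18% and 9.59% per library. Of the 9 member promoters with a peak, 8 had a weaker rank than that median in every library, and Rxrb did in all but S7KO replicate 4. These ranks were taken near the 5′ end of the gene span, where Rara and Rarb had no annotated start. At its inner start Rarb (5.45% to 9.47%) was stronger than that median in all but WT replicate 4. The inner pair of starts of Rara (13.4% to 20.4%) was weaker in every library.

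The genotypes were then compared over all genes. Covered length differed significantly at none of the 10 members. By limma with Benjamini-Hochberg adjustment, 0 of 18140 genes were higher in S7KO (0%) and 0 lower (0%), while 602 genes had an unadjusted p under 0.05 and the exact permutation test, which cannot go below p = 0.1 here, could call 0. The largest differences among members were those of Rarb, at 0.24 ± 0.19 (SE) on the log2(bp + 200) scale, and Cyp26a1, at 0.24 ± 0.11, with 95% intervals from −0.22 to 0.70 and from −0.018 to 0.49. Cyp26b1 differed by 0.16 ± 0.11 and Rxra by 0.15 ± 0.11. The adjusted p of these 4 genes in limma was 0.959. These values rested in part on WT replicate 2, without which Rarb differed by 0.057, Rxra by 0.056, Cyp26b1 by 0.080 and Cyp26a1 by 0.18, and Aldh1a2, at −0.23, was then farthest from 0. At the other 6 genes the difference lay between −0.073 (Aldh1a2) and 0.079 (Rxrb), with adjusted p from 0.966 to 0.995. The exact two-sided permutation test, whose smallest p for 3 against 3 libraries is 0.1, gave p from 0.2 to 1 at the 10 members.

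The sum over the 10 windows was 83406 ± 2774 bp (SD, n = 3) in S7KO and 78686 ± 7048 bp in WT. The differences were above 0 at 9 of 10 members, all but Aldh1a2, but 79.4% of all genes tested were above 0, and the median was 0.064 over the members and 0.081 over all genes. In no member did the groups separate, against 7.46% of genes with every S7KO library above every WT library and 0.595% with the reverse. WT replicate 2, the shortest list, had the lowest covered length at 9 of 10 members and at 70.5% of all genes tested. Without it 7 of 10 members were above 0, and the medians were 0.021 over the members and 0.0037 over all genes.

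**Figure D3:**
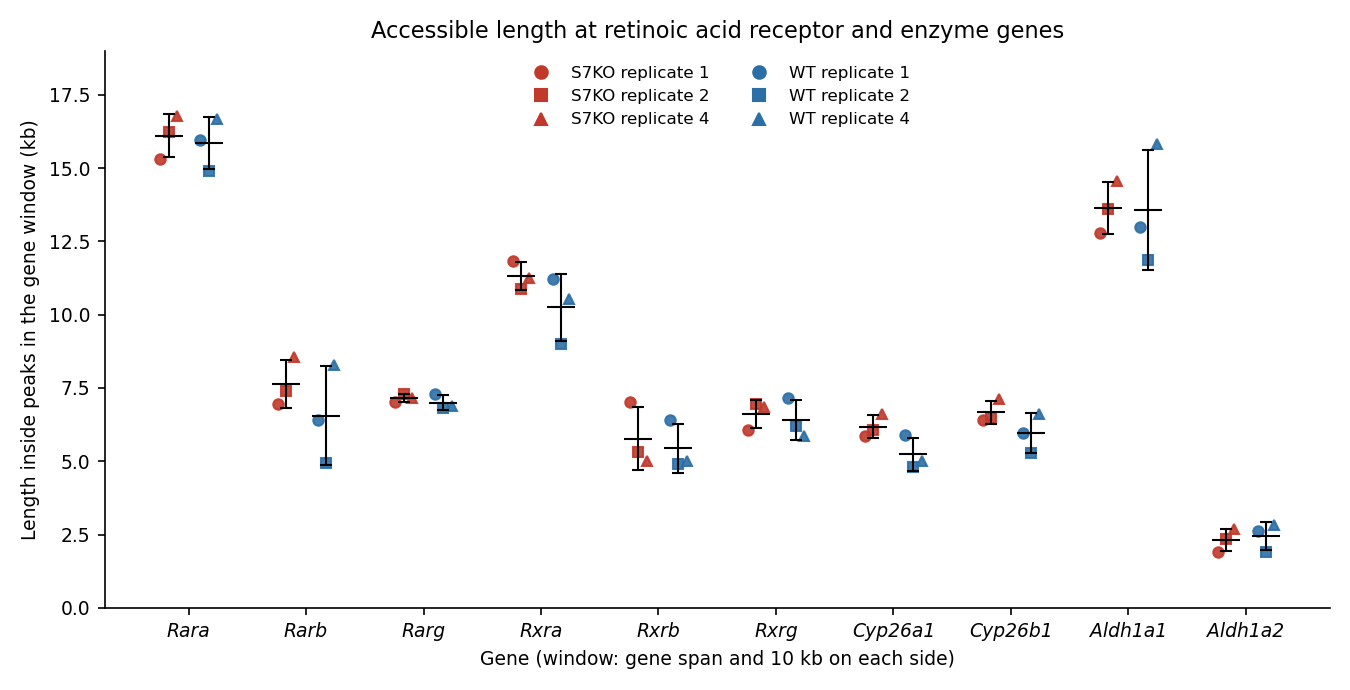
Length inside peaks in each gene window, in kb, for every library, with S7KO in red and WT in blue. Points are libraries, and bars are the mean and SD of 3 libraries. The groups overlap at all 10 genes, and WT replicate 2 (blue squares) is the lowest library at 9 of them.

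Promoter ranks showed no difference that passed the test either. Among the 9 members with a promoter peak, Rarb had the largest difference, 0.70 ± 0.36 (SE) on the log2 odds scale, where above 0 means weaker in S7KO. It came from the weak Rarb peak upstream of the 5′ end, not from the annotated start, and its exact permutation p was 0.3. Rarg had the largest difference in the other direction, −0.51 ± 0.29, with an exact permutation p of 0.2. Aldh1a1 differed by 0.50 ± 0.59. The adjusted p in limma rounded to 1 at all 9. Over 15863 genes limma called 1 weaker (0.0063%) and 1 stronger (0.0063%) in S7KO, with 384 at an unadjusted p under 0.05, and neither was a member. No member's ranks separated the genotypes, against 5.23% of genes with every S7KO library stronger and 1.24% with every WT library stronger.

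The fold enrichment of the promoter peak, which the authors' caller averaged over the width of the peak and which moves with depth, separated the genotypes at 3 of 9 members, each higher in WT. For all genes tested this pattern was found at 4.35%, and every S7KO library was above every WT library at 2.59%. Rarb had a fold enrichment of 2.67, 2.52 and 2.95 in S7KO and 3.02, 3.16 and 3.11 in WT. These came from the weak peak between −2341 and −1679 bp, where Rarb had no annotated start. At its inner annotated start the values were 6.14, 6.16 and 6.52 in S7KO and 6.75, 6.08 and 6.32 in WT, which overlapped. Cyp26a1 had 2.61, 2.61 and 2.62 in S7KO and 2.71, 3.03 and 2.84 in WT. The highest of these came from WT replicates 2 and 4, in which the Cyp26a1 peak was also the narrowest. Aldh1a2 had 4.29, 4.08 and 4.30 in S7KO and 4.54, 4.54 and 4.39 in WT. Where 3 libraries separate fully from 3, the exact permutation p is 0.1, the smallest possible, and the ranks of the same peaks overlapped.

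**Figure D4:**
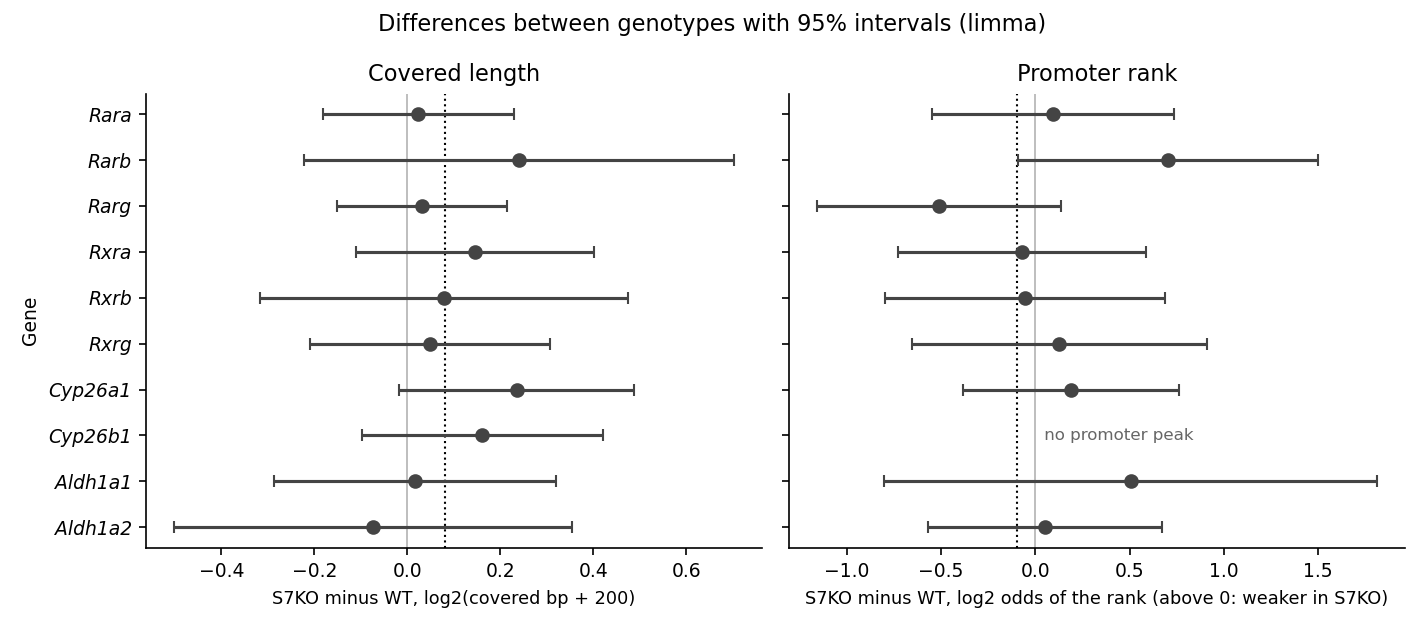
Differences between genotypes (S7KO minus WT) with 95% intervals from limma, for covered length on the log2(bp + 200) scale (left) and promoter rank on the log2 odds scale (right). The solid line is 0 and the dotted line the median over all genes tested. All 10 intervals on the left and all 9 on the right include 0.

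Region by region, the members' chromatin was largely shared between libraries. Of the 113 regions, 72 (63.7%) were called in all 6 libraries, against 57.1% of all regions, 32 in 2 to 5 libraries and 9 in a single library. The shared regions had a median width of 1037.5 bp and a median rank of 35.3%, and 18 had a rank of 25% or less in every list. The other 41 had a median width of 379 bp and a median rank of 83.8%, near the foot of the lists. By position 10 regions were in promoters, 73 in gene bodies, 12 upstream and 18 downstream.

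The number of member regions called was highest in the 2 longest lists and lowest in the shortest. Of the 113, the S7KO libraries had 86, 89 and 104 and the WT libraries 91, 79 and 100, with replicate 4 highest in both genotypes and WT replicate 2 lowest. Of the 9 regions found in a single library, 5 were in WT replicate 4 and 2 in S7KO replicate 4. More S7KO than WT libraries had the region at 16 of the 113, more WT than S7KO libraries at 11, and equal numbers at 86. These are 14.2%, 9.73% and 76.1% of the member regions, beside 22.5%, 11.2% and 66.3% of all regions.

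A single region was called in 3 of 3 S7KO libraries and in 0 of 3 WT libraries, and none had the reverse pattern. It lies past the 3′ end of Cyp26b1 at chr6:84562843-84563473 and was among the weakest of each list, at ranks of 94.0%, 87.2% and 98.3% in S7KO. Among all regions the pattern was found in 0.416% for S7KO and in 0.0743% for WT. The region was lost when peaks with a −log10 q under 3 were left out and when the lists were shortened to equal numbers of peaks. Leaving out S7KO replicate 2, WT replicate 1 or WT replicate 4 raised the count to 2, and leaving out S7KO replicate 4 gave 1 region for WT.

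The next most uneven regions were also in single genes. At Rarb a region starting at chr14 position 16569381 was called in 3 S7KO libraries and 1 WT library, and one starting at 16526100 in 2 S7KO libraries and no WT library. At Rxra, a region starting at chr2 position 27732149 was called in 3 S7KO libraries and 1 WT library, and one starting at 27729830 in 1 S7KO library and 3 WT libraries. The uneven regions of Rxra thus went in both directions.

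Among the 72 regions called everywhere, ranks separated the genotypes at 3. A region in the Rara gene body, chr11:98962922-98964266, was stronger in S7KO, at 13.4%, 18.0% and 14.8% against 25.1%, 18.9% and 26.2% in WT. Its peak was narrower in S7KO, at 791, 903 and 918 bp against 1345, 1142 and 1267 bp in WT. The fold enrichment overlapped, at 2.96, 2.54 and 2.67 in S7KO and 2.42, 2.74 and 2.24 in WT. Another, chr11:98966530-98967108, was weaker in S7KO, at 85.5%, 76.5% and 75.8% against 71.4%, 65.7% and 55.2%. These opposite patterns lay in the same gene body. Downstream of Cyp26a1, chr19:37703851-37705135 was weaker in S7KO, at 19.5%, 17.6% and 20.3% against 13.9%, 14.4% and 15.2%. By width this peak went the other way, at 746, 692 and 1285 bp in S7KO and 648, 674 and 659 bp in WT. The effect of peak width on the rank was not tested. Among all regions called in all 6 libraries, 5.98% had every S7KO library stronger and 1.35% every WT library stronger.

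Of 51 other genes of the pathway, 50 were matched by symbol, all but Meiosin. They cover retinol transport and storage, further enzymes, coregulators of the receptors, genes induced by retinoic acid and partner nuclear receptors. A promoter peak was present in all 6 libraries at 48 of the 50 (96%), beside 74% of all protein-coding genes. Rbp2, an intestinal retinol-binding protein, and Adh5, an alcohol dehydrogenase, had none. For covered length limma called 0 of 50, with differences from −0.13 to 0.43 on the log2(bp + 200) scale, a median of 0.079 and a lowest adjusted p of 0.959. For promoter rank it called 0 of 48. Of their 434 regions 1 was called in S7KO alone, a weak region of Ncoa2, a coactivator gene, at chr1:13296702-13298381, at ranks of 95.6%, 98.3% and 97.8%. Over all regions, 0.416% were called in 3 of 3 S7KO libraries and 0 of 3 WT libraries.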

How the data were processed

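ATAC-seq peak lists of 6 libraries were analysed, 3 S7KO and 3 WT, mapped to mm10 (GRCm38). Per the submitters' processing notes and the methods of the study, the authors trimmed reads with Trim Galore 0.6.6, aligned them with Bowtie2 2.4.4.1, filtered them with SAMtools 1.19.2 and called broad peaks in each library with MACS2 2.2.5. Which fragment sizes entered the calls is described in more than one way. The deposited lists give for each peak a display score (not used for any value), a fold enrichment (a ratio of pileup to background averaged over the peak), and a −log10 p-value and −log10 q-value. They hold no read counts, so the authors' DiffBind test was not repeated, and depth and its intervals cannot be given. Peaks under the caller's threshold are not listed.

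Gene spans came from RefSeq GRCm38.p6, and a 5′ end was assigned for 21436 of 21883 protein-coding genes (98.0%), with the strand from the RefSeq promoter table or, by symbol and chromosome, from GENCODE. Exons of this build were not used, so exons and introns were not separated. The covered length is the number of bases of a window inside peaks. It was tested with limma 3.58.1 (R 4.3.3) on log2(bp + 200) over the 18140 genes with a mean of at least 200 bp. The promoter rank is that of the strongest peak within 3 kb of the 5′ end, tested on log2 odds over 15863 genes. Benjamini-Hochberg adjustment ran over all genes tested, with a threshold of 0.05. For single members an exact permutation test (two-sided) enumerated all 20 assignments of the genotype labels. Peaks that overlapped or touched were merged into regions. Both fits were tested on simulated data in which genes and libraries varied independently. A shift common to a whole library was not simulated.

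The labels number the replicates of each genotype 1, 2 and 4, while a second label numbers the libraries otherwise, so the numbers were used only as names. The methods of the study describe independent biological replicates, and the labels do not tie libraries to animals. The p-values thus set the difference between genotypes against the spread between these libraries. All 10 members are named. Other pathway genes are named where they passed a test, had no promoter peak or held a genotype-specific region. The members, the lists and the uneven regions were chosen with earlier results of these data known, and support nothing beyond their own values.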

Additional observations from a re-analysis of the deposited data

How the results depend on the processing

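No member passed the threshold in any of 149 alternatives for covered length (lowest adjusted p 0.540) or 96 for promoter rank (lowest adjusted p 0.919, limma). The exact permutation test was not counted, since its smallest p is 0.1 and it could not pass. The difference changed sign in 19 and 15 of them. Centring each library on its median left 4 of 10 members above 0 in covered length, as did comparing them with the median of all genes. Taking promoters at any annotated start, an alternative chosen after seeing the data, turned the sign at Rara, Rarb and Aldh1a1, since their inner peaks were then measured.

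Over all genes, the count higher in S7KO for covered length was 0, and 3 with no filter on covered length. Leaving out 1 library gave 0 to 3, the 3 without WT replicate 4. For promoter rank the count weaker in S7KO was 1, and 0 at a −log10 q of at least 3, with 0 to 2 on leaving out 1 library. The count stronger in S7KO was 1, with 0 to 3 on leaving out 1 library. The exact permutation test gave 0 for both, as its smallest p fixes. At the members the S7KO-specific count was 1, and 0 at a −log10 q of at least 3, with equal numbers of peaks or with a region covered to at least 50%, with 1 to 2 on leaving out 1 library. The WT-specific count was 0, and 1 with equal numbers of peaks, with 0 to 1 on leaving out 1 library. The causes were not tested.

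With the replicate number as a block, the count of genes stronger in S7KO by rank was 2 and no member was called. Deviations of same-numbered libraries correlated at r = 0.154, −0.0073 and 0.195 for covered length and 0.14, 0.028 and 0.34 for rank over genes. Pairs of different numbers ranged from −0.25 to 0.091 for covered length and from −0.34 to 0.18 for rank. Whether same-numbered libraries share a batch cannot be told from these values or from the labels, and the main fits had no block.

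The lists hold no depth, which limits what a missing region says: calls end at the caller's threshold.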
